A study of Mus musculus with 2 samples.

Results

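The MPP1 gate holds the LSK cells of mouse bone marrow that carried little CD135, CD48 and CD150 on their surface. LSK cells lack lineage markers and carry Sca-1 and c-Kit, and they include the stem and multipotent cells of the blood. Each antibody tag was read as a centred log ratio (CLR), the natural log of 1 plus the tag's UMIs minus the cell's mean of that quantity over all tags. Members had a CD135 CLR below -0.43, a CD48 CLR below 0.53 and a CD150 CLR below 1.56. In all, 1120 of 7967 filtered cells were members, 552 from control mice and 568 from mice given an iron chelator. The members were thus chosen by the measured levels of these 3 tags, which are only described, and the RNA took no part in the choice.

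Haematopoietic stem cells (HSCs) sit at the top of blood formation, and the multipotent progenitors (MPPs) below them are told apart by the same surface proteins. CD135 (Flt3) is a cytokine receptor of the lymphoid-primed MPP4, CD48 marks the MPP2 and MPP3 that lean to megakaryocytic and myeloid cells, and CD150 (Slamf1) marks HSCs and MPP2. Cells with none of them are called MPP1 or short-term HSCs, although some schemes keep the name MPP1 for a CD34-positive, CD150-positive fraction. They give rise to all blood lineages but renew themselves for a shorter time than HSCs.

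The series profiled RNA and surface proteins of the same single cells (CITE-seq) to ask what long-term removal of iron does to ageing stem cells. Mice of about 6 months received deferoxamine, an iron-binding drug (labelled IC, 50 mg/kg), or the vehicle HBSS, daily on 7 consecutive days in every 4 weeks, for 13 months in all. Lineage-depleted marrow of each condition got 1 hashtag antibody, LSK cells were sorted, and both pools were mixed and loaded once on a 5' kit. The labels do not say how many mice made a pool, nor their sex. Each condition is therefore 1 sample: chelator and control were compared without a test, and every 95% interval between them covers counting error only.

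The gate cells gave 7175756 control and 7669837 chelator gene UMIs, with medians of 11637.5 and 12070 UMIs and 3894 and 4001.5 genes per cell. These medians were lower than in any other gate, where the UMI medians ran from 12698 to 21883.5. No barcode occurred in both pools, and 4025 of 4026 control and 4037 of 4037 chelator barcodes carried more of their own hashtag than of the other. Both pools mixed the sexes in unequal parts: cells with Xist, which is made from an inactive X chromosome, were 36% of the sexed gate cells in the control pool and 27.1% in the chelator pool. Cells with Xist and cells with Y-linked transcripts come from different mice, so chelator values are also given within each. A further 107 control and 98 chelator gate cells had no clear mark, and 3 and 2 had both. These cells count only in the values of all gate cells, which can thus lie outside the values of both sexes.

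The cells lay close to the thresholds. Median CLRs of the gate cells, control pool first, were -0.89 and -0.99 for CD135, -0.27 and -0.30 for CD48, and 0.68 and 0.70 for CD150. Within 0.25 of a threshold lay 46.9% of the control and 41.2% of the chelator members. Just inside the CD135 threshold, 292 members had a median of -0.56, and just outside it 654 MPP4-gate cells had -0.31. These MPP4-gate cells were counted whatever their CD48, whose median CLR in that gate was 1.21 and 1.36. Many are thus not direct neighbours of the members. For CD48 the same figures were 161 members at 0.40 and 152 MPP3-gate cells at 0.67, and for CD150 131 members at 1.43 and 152 HSC-gate cells at 1.68. The medians lie near the thresholds because only cells within 0.25 of them were taken, and the counts carry the result. No gap in CD48 separated the members from MPP3-gate cells, and none in CD150 from HSC-gate cells. For CD135, cells low in CD48 and CD150 on both sides were not compared.

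**Figure D1:**
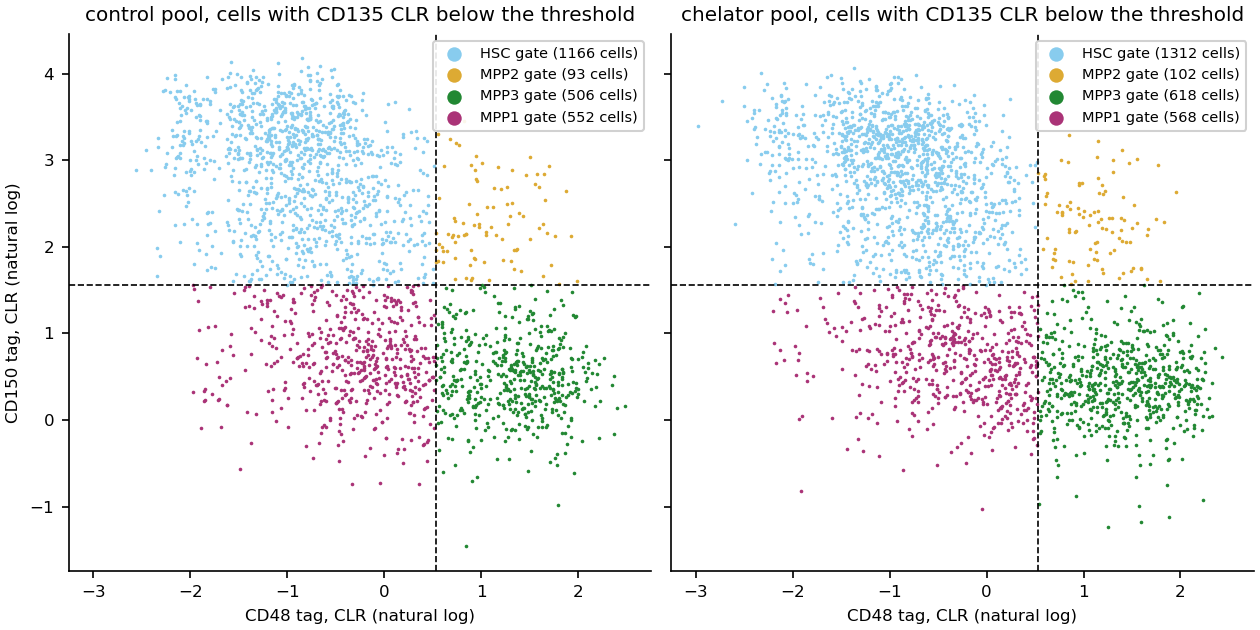
CD150 against CD48 (CLR, natural log scale) of the cells low in CD135, in the control and the chelator pool. Each point is 1 cell, dashed lines are the thresholds of 0.53 and 1.56, and the MPP1-gate cells (552 and 568) fill the corner low in both tags with no gap at either line.

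The gate took up the same part of LSK cells in both pools within counting error, at 13.9% (12.8 to 15) in the control and 14.2% (13.1 to 15.3) in the chelator pool. The difference was 0.299 points (-1.25 to 1.84). Among cells with Xist the share was 11.2% in the control and 14.2% in the chelator pool, a difference of 2.94 points (0.107 to 5.87). Among cells with Y-linked transcripts it was 14.5% and 13.4%, a difference of -1.08 points (-3.18 to 0.984).

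The genes given as marks of the gate, Cd34, Mgst1 and Rgs1, had been picked with results of these data known, and their levels are a description. All RNA levels are in CPM, the UMI counts of a gene scaled to the summed gene UMIs of its gate and pool, control pool first. Cd34 (chromosome 1, 194938821 to 194961292 in GRCm38.p6), the sialomucin that HSCs largely lack, was at 319.7 and 335 CPM. It was at 73.2 and 73.0 in the HSC gate, but at 457 and 487 in MPP3 and 546 and 547 in MPP4. Cd34 thus placed the gate between the HSC gate and the MPP3 and MPP4 gates and did not single it out. This order did not extend to MPP2. With cells thinned to equal UMIs, 70.4% and 69.2% of MPP1-gate cells had a Cd34 UMI, against 37.0% and 40.4% in MPP2.

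Mgst1 (chromosome 6, 138140527 to 138156755), a membrane glutathione transferase, was at 24.8 and 25.9 CPM. The other gates had 7.00 and 7.94 (HSC), 3.27 and 8.54 (MPP2), 14.6 and 19.3 (MPP3), and 19.7 and 20.3 (MPP4). Rgs1 (chromosome 1, 144244669 to 144249104), a damper of G-protein signalling, was at 285 and 339.9 CPM, against 138 to 199 in the other gates. Both genes were highest in this gate in both pools, Mgst1 by little over MPP4.

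The RNAs of the gate proteins followed their tags only in part. Flt3 was at 74.1 and 73.1 CPM in cells low in the CD135 tag, against 7.00 and 8.76 in HSC-gate and 280.2 and 276 in MPP4-gate cells. The CD135 tag was sparse, with medians of 2 and 1 tag UMIs per gate cell. The medians were 1 and 2 in the HSC gate and 6 and 6 in MPP4. Whether the tag missed CD135 protein on some gate cells was not tested. After each cell was thinned to 5000 UMIs, 28.1% and 27.1% of gate cells had a Flt3 UMI, against 2.39% and 3.54% in the HSC gate and 63.3% and 62.7% in MPP4. The Flt3 share was above that of the HSC gate, which serves as the background here. Cd48 was at 9.06 and 12.4 CPM and Slamf1 at 4.04 and 3.0, against 139 and 136 for Cd48 in MPP3 and 58.4 and 58.5 for Slamf1 in the HSC gate.

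**Figure D2:**
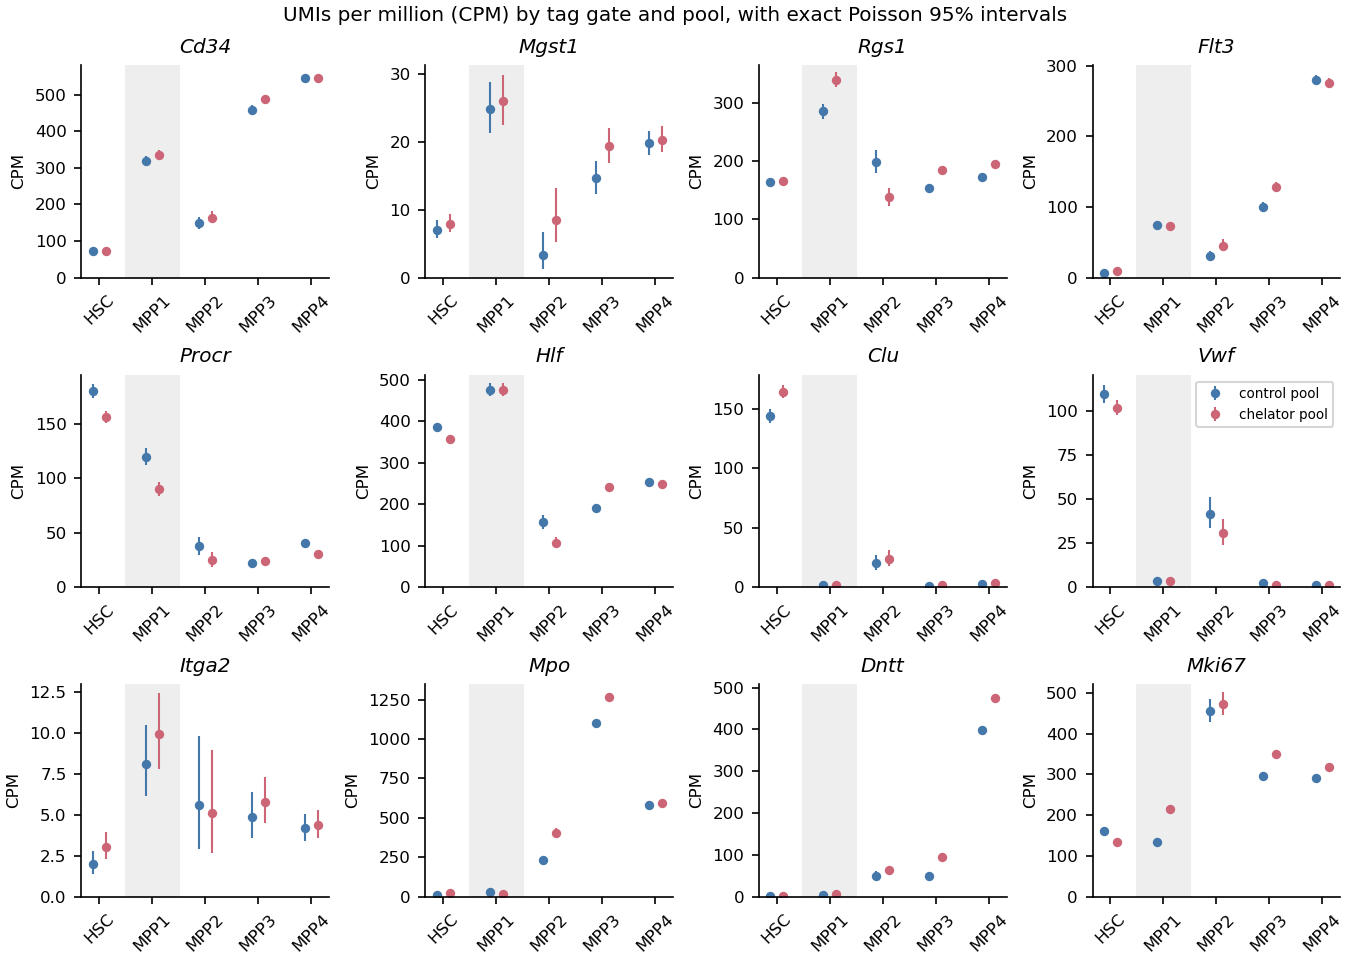
RNA level (CPM) of 12 genes in the HSC, MPP1, MPP2, MPP3 and MPP4 gates, 1 point per pool with exact Poisson 95% intervals (counting error only), with the MPP1 gate shaded. Rgs1 and Itga2 peak in the MPP1 gate, Cd34 and Flt3 lie between HSC and MPP4, and Clu and Vwf are near 0 there while HSC-gate cells have over 100 CPM.

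Other surface proteins, which the gate did not use, also differed between the MPP1 gate and other gates. The median CLR of CD49b, the integrin alpha 2 collagen receptor, was 2.77 and 3.0, against 1.19 and 1.43 in the HSC gate. It was also above the 2.19 and 2.28 of MPP2, the 2.52 and 2.63 of MPP3 and the 2.58 and 2.52 of MPP4. Its gene Itga2 was at 8.08 and 9.91 CPM, against 1.99 to 5.75 in the other gates. The protein and the RNA of this integrin were both highest in the MPP1 gate.

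CD86, a co-stimulatory ligand, stood at 1.45 and 1.47, against 0.05 and 0.08 in the HSC gate, and MHC class II (I-A/I-E) at 0.77 and 0.85, against -0.03 and -0.07. CD371 (Clec12a), an inhibitory lectin receptor, at 0.76 and 1.0 lay between HSCs and the CD48- or CD135-positive gates. It was at -0.16 and -0.04 in the HSC gate, 1.46 and 1.83 in MPP3, and 1.69 and 1.94 in MPP4. The platelet integrins were lower than in the HSC gate. CD41 was at 0.86 and 0.90 against 1.90 and 2.19 in the HSC gate, and CD61 at 1.26 and 1.24 against 2.30 and 2.44. They were not lower than in all gates. As a mean over the pools, CD61 was 1.14 above MPP3 and 1.17 above MPP4, and CD41 was 0.63 above MPP4. Sca-1 (0.43 and 0.39) and c-Kit (CD117, 4.87 and 4.88), on which the cells had been sorted, were near the HSC gate's 0.38 and 0.42 and 4.79 and 4.72.

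The RNA of the gate was compared with that of neighbouring gates on UMI counts summed per gate and pool, with the pool as a block in edgeR's quasi-likelihood test. A gene was called at a Benjamini-Hochberg adjusted p threshold of 0.05, a fold of 1.5 and the same sign in both pools. The 2 pools stand in as replicates although they differ in treatment. With the pool as a block, the p-values rest on how far the difference between gates varied between these 2 pools, with the spread pooled over genes. They measure no spread between mice. The comparisons share the sums of the MPP1 gate and are not independent of each other.

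Against the HSC gate, 639 of 13778 genes were higher in MPP1-gate cells (4.64%) and 1199 lower (8.7%). Genes linked to aged and megakaryocyte-biased HSCs were far lower. All 22 genes of an HSC ageing list, which was chosen with earlier results of these data known, were called lower, with a median log2 fold of -2.41, against 0.00 over all genes. Vwf, the von Willebrand factor of platelet-biased HSCs, was at 3.34 and 3.65 CPM, against 109.7 and 102 in the HSC gate. This was a log2 fold of -4.93 ± 0.10 (SE). Clu, the chaperone clusterin, had 29 UMIs against 5573, 79.3-fold lower (55.2 to 119). The smallest falls of the list were those of Alcam (-0.68) and Aldh1a1 (-0.82).

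Of 25 HSC identity genes, 18 were lower, none was higher and 7 were not called, with a median of -0.85. Sult1a1 was at 32.7 and 31.9 CPM against 228 and 262 in the HSC gate, and Nupr1, a stress-response co-factor, at 53.9 and 62.3 against 256 and 247. Procr, the protein C receptor EPCR, was at 119.8 and 90.1 against 180.5 and 157 (-0.71). Other core genes were not called. Hlf, a transcription factor of HSC self-renewal, was at 475 and 475 CPM against 387 and 357 (0.34, under the fold threshold). Mecom was at 253 and 267 against 330.5 and 324 (-0.35), and the homeobox gene Hoxa9 at 107 and 105 against 78.2 and 78.4 (0.42).

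Among genes past the threshold, some fell to almost no counts. Kcnb2, a potassium channel, had 1 UMI against 2102 in the HSC gate, 868-fold lower with a counting interval of 156 to 34289. Hoxb8 had 1 against 528, Insm1 1 against 234, and Gpx8, Kdf1, Lbhd2, Rbpjl, Cldn5 and Gkn3 had 2 to 6 against 205 to 933. Megakaryocyte genes went the same way, with 12 of 18 lower and none higher (median -0.94). Vwf and Cavin2 (-2.96) were the lowest of them and the highest, Plek at 0.49, was not called. The lists share genes and are not separate results. Cavin2, Selp, Vwf and Itga2b are also in the ageing list, as are Clu, Nupr1 and Sult1a1 of the identity list.

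Among the genes with the highest folds, Tespa1, a T-cell receptor signalling adaptor, was at 36.5 and 37.4 CPM against 3.38 and 3.04 (log2 fold 3.51). Cd52, a small leukocyte surface protein, was at 79.3 and 65.6 against 6.4 and 7.99 (3.29). Ccl3, an inflammatory chemokine, was at 36.9 and 24.8 against 3.08 and 4.28 (3.01). Cd244a, BC035044, Haao, the protease gene Ctss and the tetraspanin Cd53 rose by 2.49 to 3.39.

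Of 15 measured lymphoid priming genes, 9 were higher and 1 lower, with a median of 1.22. Dntt, the terminal transferase of early lymphoid cells, was at 4.18 and 5.48 CPM against 1.93 and 2.17 (1.22). These levels were far from the 397 and 475 of MPP4. Mef2c (-0.62) was the gene that fell. Ighm was among the higher genes, although 1 control cell held 445 of its 480 control UMIs. Jchain had the highest fold of the list but was not called, and 1 control cell held 649 of its 653 control UMIs in the gate.

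Granulocyte-monocyte genes gave 4 higher and 2 lower of 15, with a median of 0.11. Cebpa (2.09) and Gfi1 (1.12), transcription factors of that branch, were higher, while Elane (-1.75) was lower. Mpo was at 26.5 and 18.1 CPM against 10.1 and 21.7 (0.49 ± 0.27, adjusted p = 0.21, not called). In the HSC gate 1 chelator cell held 327 of the 421 Mpo UMIs of its pool, and without the cells richest in erythroid or immunoglobulin UMIs the log2 fold was 1.63 and Mpo was called. MHC class II genes gave 4 higher and none lower of 7, led by H2-Ab1 at 164 and 145 CPM against 86.3 and 85.3 (0.82). None of the 7 was called against MPP3 (median -0.10) or MPP4 (-0.20).

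Of 18 erythroid priming genes, 10 were higher and 1 lower, but this rested on a few cells. Rhd (4.54) and Ermap (3.63), both of the red cell membrane, had the highest folds. Car2 and Tfrc were set aside to find erythroid-rich cells. The 5 gate cells richest in UMIs of the other members held 62.8% of these UMIs in the control and 61.9% in the chelator pool. Without the 5 richest cells of each gate and pool, 1 member was called higher. The 1 lower member was Epor (-1.15), the erythropoietin receptor.

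Of the genes that define other cell types, some were not seen. Cd3e, Cd3g and Gzma of T and NK cells, Siglech and Cd209a of dendritic cells, Cdh5 of endothelium, Lepr of stroma and Cma1 of mast cells had 0 UMIs in both pools. The summed T, NK and innate lymphoid list was at 186 and 177 CPM, between the HSC gate (92.1 and 71.0) and MPP3 (403 and 410.2). Nkg7, a granule protein of NK cells, made up most of it at 139 and 142 CPM, and it and Thy1 were called higher than in the HSC gate. So were Pdgfrb of stroma (9.48 and 9.26 CPM against 3.14 and 3.4) and Cpa3 of mast cells (14.6 and 11.7 against 4.89 and 3.09). The part of such cells in the other results was not tested. The B and plasma cell list was at 139.8 and 41.9 CPM, and 1 control cell held 701 of its 721 Igkc UMIs. C1qa, C1qb and C1qc of macrophages were called higher than in the HSC gate, and 1 control cell held 19 of 36 C1qa UMIs.

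Against MPP3, 1432 of 12984 genes were higher (11%) and 897 lower (6.91%), and against MPP4 1552 of 13877 were higher (11.2%) and 904 lower (6.51%). HSC identity genes were higher than in these gates. Of 25, 20 were higher than in MPP3 (median log2 fold 1.11) and 22 than in MPP4 (1.19), with none lower in either. Nupr1 stood at 5.24 and 4.85 CPM in MPP3 and 5.60 and 5.70 in MPP4, giving log2 folds of 3.47 and 3.31. Sult1a1 was at 3.62 and 3.70 in MPP3 (3.07) and 4.25 and 3.2 in MPP4 (3.07). Hlf, at 190.3 and 241 in MPP3 and 254 and 248 in MPP4, was 1.07 and 0.87 higher in the MPP1 gate, and Procr 2.09 and 1.52 higher.

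The ageing list gave 17 of 21 higher than in MPP3 (1.37) and 19 of 22 higher than in MPP4 (2.14). It shares genes with the identity list, such as Nupr1 and Sult1a1, and with the megakaryocyte list, such as Cavin2 and Vwf. Megakaryocyte genes gave 8 of 17 (0.64) and 15 of 18 (1.28), with Cavin2 2.71 and 3.59 higher. Cavin2 and Nupr1 thus had levels between the HSC gate and the later gates. Tgm2, a transglutaminase, showed the same order, with 155 and 155 CPM in the HSC gate, 53.5 and 37.5 in the MPP1 gate, and 6.34 and 3.29 in MPP3. Clu was an exception, at 2.09 and 1.83 CPM against 2.74 and 3.02 in MPP4, where it was not called.

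Most granulocyte-monocyte and mast cell-associated genes measured were lower than in MPP3. Of 8 measured mast cell-associated genes 7 were lower and 1, Il4, was higher (median -4.36). Of 20 granulocyte-monocyte genes, 16 were lower than in MPP3 and none higher, with a median of -3.96. Elane, neutrophil elastase, was at 1.39 and 1.96 CPM against 543 and 462 (-8.27 ± 0.11). Ctsg was at 2.23 and 1.96 against 322 and 363 (-7.42), and Mpo lay at 1102 and 1265 in MPP3 (-5.80). Slpi fell by 7.26, and Mcpt8, Hdc, Ms4a3, Cst7, Card9 and Irf8 completed the 10 largest falls.

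Against MPP4, 15 of 20 granulocyte-monocyte genes were lower and none higher (median -2.86). Of 19 lymphoid genes, 13 were lower than in MPP4 and none higher (median -1.72). Dntt differed by -6.54. Ebf1, a B-lineage factor, had 0 UMIs against 105, Kcng1 0 against 357, and Rag2, of the recombinase, 1 against 392. For Kcng1 this was at least 36.6-fold lower, with 3 counts over the group as the limit that 0 UMIs allow. Against MPP3, 9 of 17 lymphoid genes were lower and none higher. The 7 measured chemokine genes were all lower than in MPP4 (median -1.11), and Ccl9 had the largest difference, -3.14.

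Cell-cycle genes lay below MPP3 and MPP4, and against the HSC gate most had small folds above 0, with few called. Against the HSC gate, where 4.64% of all genes were higher, 7 of 42 S phase genes and 3 of 52 G2 and mitosis genes were higher, 0 and 1 were lower, and both medians were 0.37. Against MPP3, 27 S phase and 38 G2 and mitosis genes were lower and none was higher (medians -0.68 and -0.78). Against MPP4 the counts were 9 and 36, also with none higher (-0.44 and -0.77). The summed G2 and mitosis list was at 3574 and 4942 CPM against 3581 and 3216 in the HSC gate, near equal in the control pools and higher in the chelator pool. Mki67, a protein of dividing cells, was at 135 and 215 CPM, against 162 and 134 in the HSC gate and 292 to 349.9 in MPP3 and MPP4.

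Single regulators of division differed from the HSC gate, but most members of their lists were not called. Of 16 quiescence genes and CDK inhibitors, 5 were lower and 11 not called (median -0.07), where 8.7% of all genes were lower. Of 5 D cyclin and CDK genes 1 was higher and 1 lower, and of 24 Myc and ribosome biogenesis genes 1 was higher. Cdkn1c, the inhibitor p57, was at 33.3 and 29.1 CPM, against 81.8 and 73.9 in the HSC gate (-1.34) and 5.94 to 8.94 in MPP3 and MPP4. Cdk6, the kinase that speeds exit from quiescence, was at 289 and 311 against 169 and 187 in the HSC gate (0.73). Myc was at 376 and 406 against 233 and 275 (0.60). Ccnd1, a D cyclin, was lower than in the HSC gate (-0.75). Of 21 immediate-early genes, 7 were lower than in the HSC gate and none higher (median -0.49), among them Egr1 at 243 and 286 CPM against 502 and 706 (-1.20).

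Of 24 iron uptake, storage and export genes, 6 were higher than in the HSC gate and none lower, where 4.64% of all genes were higher. The list's median was 0.05, 18 members were not called, and DESeq2 called 2 members higher. Trf, transferrin, was at 48.8 and 45.6 CPM against 13.0 and 15.2 (1.72), and Steap3, an iron reductase, at 15.9 and 12.8 against 7.18 and 5.83 (1.12). Tfrc, the transferrin receptor, was called higher at 15.1 and 11.6 against 8.57 and 7.63 (0.69), but 5 cells held 65 of its 108 control UMIs. With the richest erythroid cells left out, the Tfrc log2 fold was -0.014. Fth1, the ferritin heavy chain, at 1949 and 1929.6 CPM, Ftl1 at 183 and 187, Ncoa4, the ferritin autophagy receptor, at 135 and 131, and the exporter Slc40a1 at 4.04 and 3.0 were not called. Against MPP3 the iron list gave 1 higher and 2 lower of 24, where 11% of all genes were higher and 6.91% lower. Against MPP4 it gave 4 higher and 1 lower, where 11.2% and 6.51% of all genes were. None of 12 heme synthesis genes was called against the HSC gate, and Isca1 (-0.61) was the one called gene of 18 of iron-sulfur cluster assembly.

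**Figure D3:**
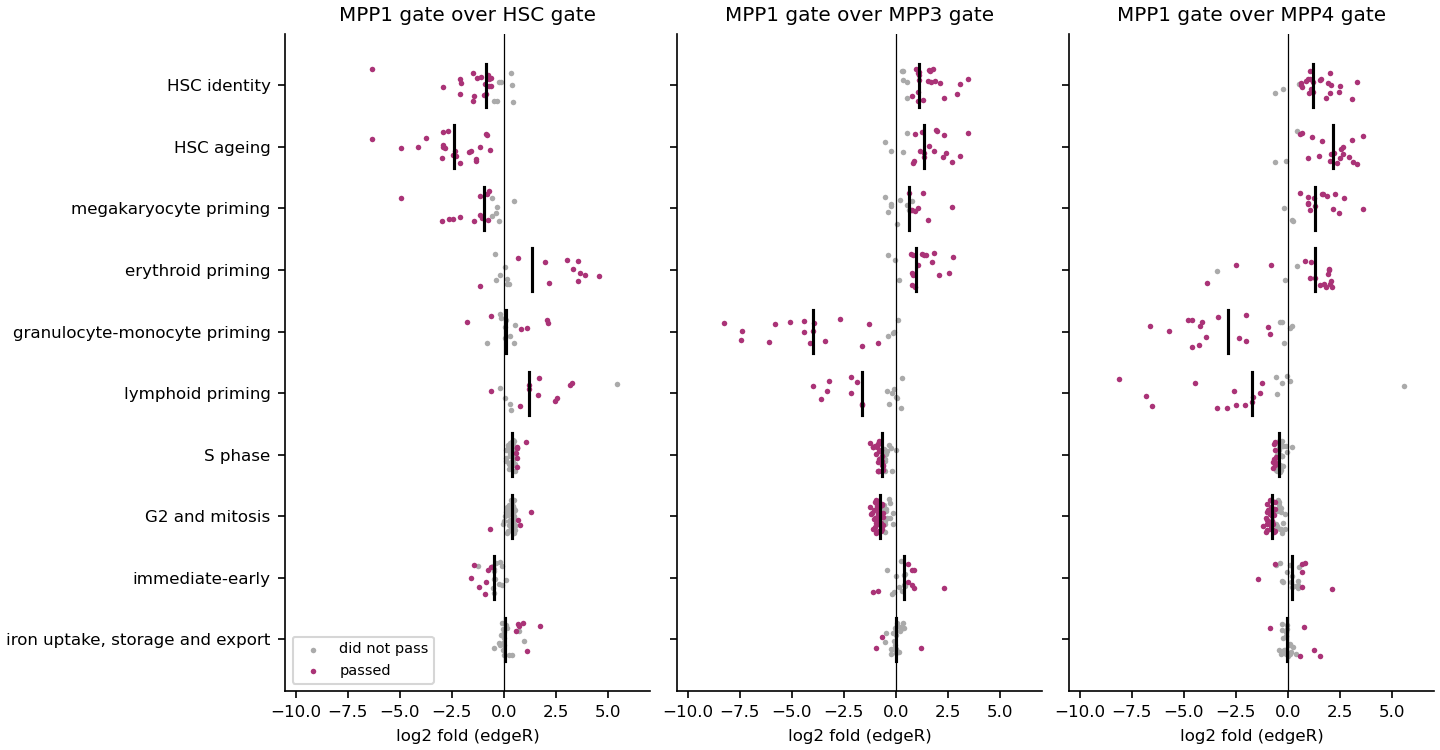
log2 fold of MPP1-gate cells over the HSC, MPP3 and MPP4 gates for the members of 10 gene lists; each point is 1 gene, purple where called and grey where not, and the black bar is the list's median. HSC identity and ageing genes lie left of 0 against the HSC gate (medians -0.85 and -2.41) and right of 0 against MPP3 and MPP4, where granulocyte-monocyte and lymphoid genes lie left.

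Inside the gate the cells were of several kinds. RNA clusters of all LSK cells are called by number here and only described. Cluster 1, led by Egr1, Dlg2, Bgn, Upp1 and Procr, held 32.8% of control and 33.6% of chelator gate cells, and cluster 12 held 22.8% and 19.7%. Cluster 3, which held 45.9% and 54.3% of HSC-gate cells, held 1.09% and 1.23% here. Cluster 5, led by Kcnb2, had 8.92% and 1.60% of HSC-gate cells and none of 552 and 568 gate cells, which allows at most 0.67% and 0.65%.

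Clusters 1 and 12 differed in stem cell and progenitor genes. In cluster 1, Cd34 was at 209 and 223 CPM, Procr at 216 and 165, Hlf at 709 and 654 and Flt3 at 45.7 and 36.2. In cluster 12, Cd34 was at 474 and 501, Procr at 72.9 and 67.7, Hlf at 456 and 450 and Flt3 at 99.4 and 115. Both were at 10.2 CPM or less of Mki67. Cluster 9, led by the interferon-inducible GTPases Gbp6, Iigp1 and Tgtp1, held 46 control cells, 8.33% (6.17 to 11), and 22 chelator cells, 3.87% (2.44 to 5.81).

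The CD34 tag, which the gate had not used, was used to split the gate cells of each pool at its median. Of the genes tested, 4 of 11694 were higher (0.0342%) and 24 lower (0.205%) in the CD34-high cells. Cd34 RNA was at 351 against 304 CPM (0.17 ± 0.06, adjusted p = 0.22, not called). DESeq2, and edgeR without the pool block, called 0 genes in either direction, with 80 and 611 at an unadjusted p under 0.05. In the edgeR test with the block, 6 of 18 ageing and 2 of 24 HSC identity genes were called lower in the CD34-high cells and none higher. The 2 identity genes, Nupr1 and Sult1a1, belong to both lists and are among the 6. Without the cells richest in erythroid or immunoglobulin UMIs, 5 genes were called lower, and Nupr1 was the one gene of these lists among them. Nupr1 was at 43.6 CPM against 73.3 (-0.78 ± 0.10, adjusted p = 6.2e-11) and Egr1 at 215 against 317 (-0.59 ± 0.06, adjusted p = 2.4e-17).

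Bex1 at 28.2 against 46.0 CPM, Ccl4 at 50.8 against 81.7 and the histone gene Hist1h2bk at 16.5 against 32.2 were lower in the CD34-high cells as well. These 3 with Nupr1 and Egr1 were the 5 genes called when the richest erythroid and immunoglobulin cells were left out, and none was then higher. Ehd3, Chrm3, Cavin2 and Sult1a1 fell by 0.65 to 1.0. The 4 higher genes were Foxn2 and the histone genes Hist1h3h, Hist1h3a and Hist1h3f, whose near-identical copies can share reads.

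Between the pools, 116 of 10121 genes (1.15%) were past 1.5 fold higher in chelator gate cells with an interval that left out 1, and 62 (0.613%) lower. The highest were mostly genes of mitosis. Cdc25c, the phosphatase that starts mitosis, was at 4.18 CPM in the control and 10.8 in the chelator pool, a log2 ratio of 1.37 (0.75 to 2.03). Cenpf, a kinetochore protein, was at 42.8 and 93.9 (1.13, 0.94 to 1.33), and Foxm1, a transcription factor of mitotic genes, at 5.99 and 12.9 (1.11). Fam83d, Sgo2a, BC030867, Parpbp, Ankle1 and Kif18b were also among the 10 highest, led by Clca3a1 at 3.62 and 9.78 (1.43).

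All 52 G2 and mitosis genes were higher in the chelator pool, 48 with an interval above 0, at a median log2 ratio of 0.61. Of all 11267 genes with 50 UMIs, 52.6% were higher, 7.21% had an interval above 0 and 5.05% one below. Mki67 was at 135 and 215 CPM (0.68, 0.56 to 0.79) and Top2a, a topoisomerase of dividing cells, at 163 and 223 (0.46). The summed list was at 3574 and 4942 CPM. The direction was the same within both sexes, at medians of 0.34 (48 of 52 higher) with Xist and 0.68 (51 of 52) with Y-linked transcripts, although Fam83d, a spindle gene outside the list, was lower with Xist (-0.63). The list's medians in the other gates were -0.20 in HSC, with none of the 52 higher, 0.10 in MPP2, 0.25 in MPP3 and 0.05 in MPP4. The difference between gates was not tested.

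S phase genes differed less, with 30 of 42 higher and a median of 0.09, and with medians of -0.06 and -0.03 within the sexes. Cell by cell, after thinning to 5000 UMIs, 147 of 520 control gate cells (28.3%, 24.4 to 32.4) and 194 of 543 chelator gate cells (35.7%, 31.7 to 39.9) scored above 0 for S or G2M genes. The difference was 7.46 points (1.72 to 13.1), and 27.2% against 34.9% without thinning. Within the sexes the interval included 0, at 3.87 points (-8.09 to 15.9) with Xist and 5.19 (-2.46 to 12.7) with Y-linked transcripts. Both lie below the 7.46 points of all gate cells. With Xist, 54 of 153 control and 47 of 120 chelator cells scored above 0. With Y-linked transcripts, 79 of 274 and 115 of 338 did. Gate cells with no clear mark or with both scored more often in the chelator pool too, and add to the 7.46 points. HSC-gate cells differed by 1.36 points (-2.07 to 4.78), MPP2 by 9.62 (-1.71 to 21), MPP3 by 2.78 (-2.6 to 8.21) and MPP4 by 4.44 (0.647 to 8.22). The difference between gates was not tested. Gate cells with 100 or more UMIs of G2 and mitosis genes made up 9.78% of the control and 15.5% of the chelator pool. The 55 and 57 richest cells held 64.0% and 63.3% of these UMIs.

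**Figure D4:**
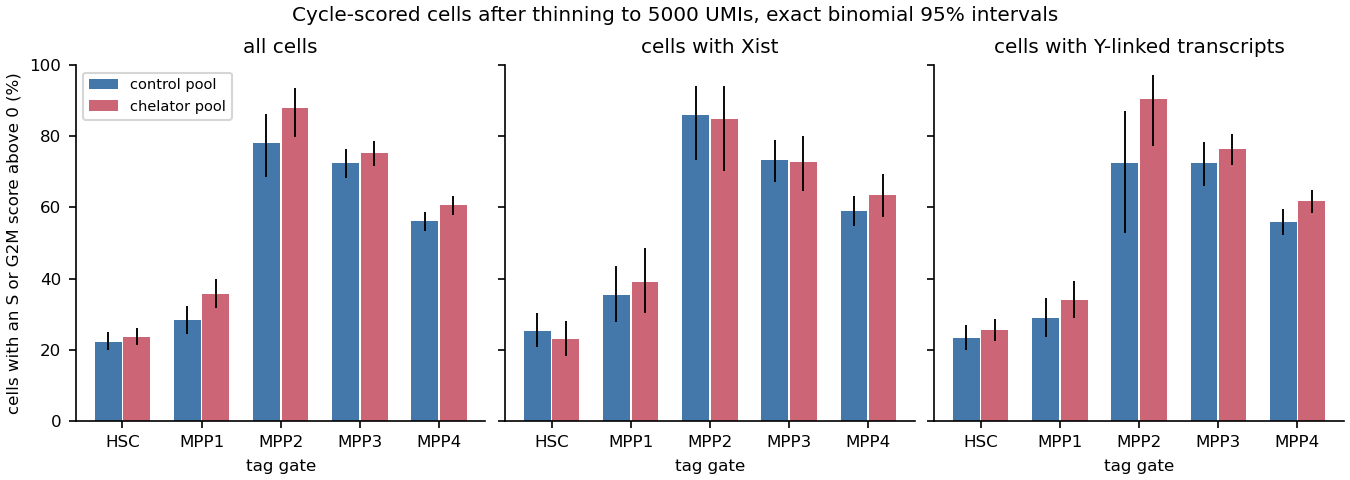
Share of cells (%) that scored above 0 for S or G2M genes after thinning to 5000 UMIs, by gate and pool, in all cells, cells with Xist and cells with Y-linked transcripts; error bars are exact binomial 95% intervals (counting error only). In all MPP1-gate cells the bars stand at 28.3% and 35.7%, under those of MPP2, MPP3 and MPP4.

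Iron genes showed small differences. Of 24, 20 were lower in the chelator pool, 2 with an interval below 0, at a median of -0.17. Of all genes 47.4% were lower. Fth1 (-0.01, -0.05 to 0.02), Ftl1 (0.03, -0.08 to 0.14) and Ncoa4 (-0.05, -0.18 to 0.08) lay near 0. Tfrc was at 15.1 and 11.6 CPM (-0.38, -0.80 to 0.04), and its ratio was 0.68 with Xist and -1.03 with Y-linked transcripts. Slc40a1 had 29 and 23 UMIs, so its ratio of -0.43 (-1.29 to 0.41) was loosely bounded. With Xist alone, 13 of the 24 were lower.

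Heme synthesis genes were lower in 11 of 11 measured cases, 4 with an interval below 0 (median -0.25), but in 4 of 11 within cells with Xist. Iron-sulfur cluster genes were higher in 13 of 18 cases at a median of 0.05. Nuclear genes of oxidative phosphorylation had a median of 0.03.

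Erythroid genes were lower in 17 of 17 cases, 13 with an interval below 0, at a median of -0.91. Rhd was at 16.4 and 5.09 CPM (-1.69), Hbb-bt, a beta globin with near-identical copies, at 60.5 and 30.5 (-0.99), and Gata1, the factor of the erythroid and megakaryocyte branch, at 19.8 and 10.6 (-0.91). Cells with Xist had a median of 0.64 and those with Y-linked transcripts one of -1.63. Klf1, the main erythroid factor, had a log2 ratio of 3.63 with Xist and -2.0 with Y-linked transcripts. Before the split by sex, 17 control and 14 chelator gate cells had a Klf1 UMI, so both ratios rest on few cells. Cells with 10 or more UMIs of the list without Car2 and Tfrc were few, 22 (3.99%) in the control and 15 (2.64%) in the chelator pool. Of 1007 and 975 Car1 UMIs, 945 and 971 were in 5 cells per pool.

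Immediate-early genes also split by sex. Of 18, 14 were higher in the chelator pool at a median of 0.17, with a median of -0.38 with Xist (16 lower) and 0.47 with Y-linked transcripts (all 18 higher). Fos was at 372 and 531 CPM (0.51, 0.44 to 0.58), with -0.62 (-0.78 to -0.47) with Xist and 1.06 (0.96 to 1.16) with Y-linked transcripts. Nr4a1 gave 0.58, -0.31 and 0.81 in the same order. Rgs1 gave 0.25 (0.17 to 0.34), -0.36 (-0.52 to -0.19) and 0.68 (0.57 to 0.80). Egr1 was higher within both sexes, at 0.23, 0.38 and 0.22.

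Of the other marks of the gate, Cd34 differed by 0.07 (-0.01 to 0.15) and Mgst1 by 0.06 (-0.23 to 0.36). Hlf was at 0.00 (-0.07 to 0.07) and Mecom at 0.08. HSC identity genes had a median of -0.04, with -0.30 with Xist and 0.09 with Y-linked transcripts. Procr was lower in both sexes, at -0.41 (-0.56 to -0.27) in all gate cells, -0.81 with Xist and -0.29 with Y-linked transcripts. Ltb, a lymphotoxin gene, was lower as well (-0.46, with -0.27 and -0.54). Ccl3 was at 36.9 and 24.8 CPM (-0.58), with -2.01 and -0.72 within the sexes. The interferon-inducible GTPase genes Gbp6 (-0.55), Igtp (-0.54) and Iigp1 (-0.47) were lower in both sexes too. These genes are among those that lead cluster 9, so their lower levels and its smaller share are not separate results.

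The lowest ratio was that of Hspa1b, a heat shock protein whose near-identical copy Hspa1a can share reads. It was at 13.4 and 2.61 CPM (-2.36, -3.13 to -1.65), with -1.67 and -3.05 within the sexes. It was lower in every other gate, with 43.9 and 7.81 in MPP3. Myl10, a myosin light chain, was at 126 and 65.5 (-0.94), with -1.07 with Xist and 0.34 with Y-linked transcripts. Hist1h3h (-1.14), Epdr1 (-1.14), Lrrc36 (-1.0), Aqp1 (-0.96), Ston2 (-0.94) and Plk2 (-0.92) were the other low genes. In Hist1h3h, 1 control cell held 58 of 171 UMIs.

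**Figure D5:**
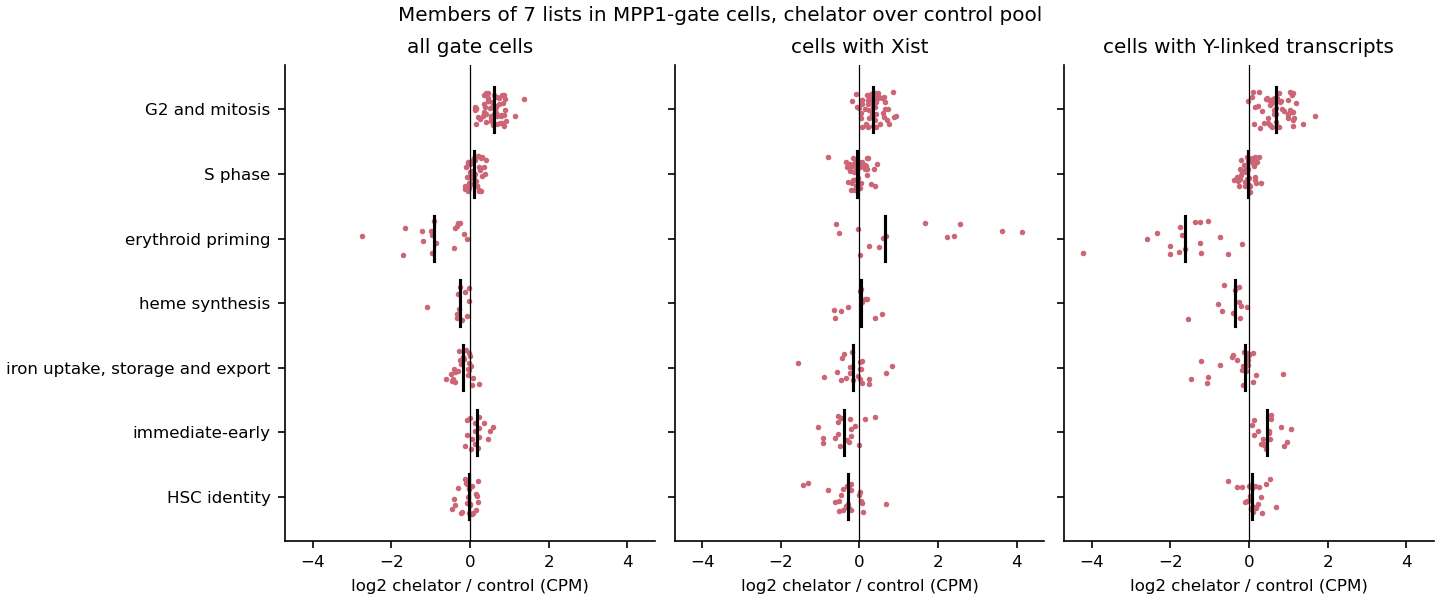
log2 ratio of chelator over control CPM for members of 7 gene lists in MPP1-gate cells, in all cells, cells with Xist and cells with Y-linked transcripts; each point is 1 gene with 50 or more UMIs and the bar is the median. G2 and mitosis genes lie right of 0 in all 3 panels (medians 0.61, 0.34 and 0.68), while erythroid genes lie left, right and left (-0.91, 0.64 and -1.63).

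Of the surface tags, CD93 at -0.16 and -0.55, CD62P at 0.05 and -0.22, CD45 at 1.14 and 0.94 and CD34 at -0.27 and -0.44 were lower in chelator gate cells. All 4 were also lower in the chelator pool in the HSC, MPP3 and MPP4 gates. CD371 (0.76 and 1.0), CD49b (2.77 and 3.0) and Ly-49A (0.01 and 0.26) were the highest differences. These are differences of medians over cells of 1 pool per condition, with no error across mice.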

How the data were processed

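Per the labels, 1 loading of mixed control and chelator pools gave 1 RNA and 1 tag library. The authors deposited 1 matrix of raw UMI counts per condition, not normalized, with 32285 genes and 126 surface tags. The tools were Cell Ranger 7.0.0 and Seurat 4.3.0 with mm10, per the submitters' processing notes, while the header of the matrices gives 7.0.1. How barcodes were filtered and assigned to hashtags is not stated. The condition of a matrix came from its name and was checked against the hashtag UMIs.

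Barcodes needed 500 genes and less than 10% mitochondrial UMIs, so 57 control and 39 chelator barcodes were dropped. No doublet caller was run. The other gates used the same thresholds: HSC (CD150 alone), MPP2 (CD48 and CD150), MPP3 (CD48 alone) and MPP4 (CD135 without CD150). Cells with at least 2 Xist UMIs and no Y-linked UMI, or 1 Y-linked UMI over 4 genes and no Xist, were assigned a sex mark. Members, gene lists and tests were chosen with earlier results of these data known.

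UMI counts were summed per gate and pool and tested with edgeR 4.0.16 in R 4.3.3 (TMM, filterByExpr, pool as a block, 1 residual degree of freedom). In simulated counts for the HSC comparison (13796 genes), it called 97 of 100 genes changed by a log2 fold of 1. Of genes changed by 2 it called 100 of 100, and of unchanged ones 7 of 13596. The changed genes were drawn from those with at least 200 UMIs, and every gene was given the same spread. Recovery of sparser or more variable genes was not tested. How often edgeR calls unchanged genes in the real counts, where a few cells can hold most UMIs of a gene, was not tested either. Within-gate ratios have exact conditional binomial intervals, shares exact Clopper-Pearson ones. Clusters used scanpy 1.11.5 (2000 variable genes, 30 components, 15 neighbours, Leiden resolution 1). RefSeq (GRCm38.p6) gave the coordinates.

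The genes named were the 10 highest and 10 lowest called with at least 200 UMIs (100 between pools) and a UMI in 5% of cells, 19 fixed genes, and up to 4 members of a list, the 2 highest and 2 lowest or those with most UMIs. Tags were the 5 highest and 5 lowest. Other genes, such as Itga2, Top2a, Klf1, Car1, Cdk6, Gbp6 and Igtp, the limits of 10 erythroid and 100 mitotic UMIs per cell, and 6 of the alternatives were chosen after values had been seen, beside 51 planned ones. So was the limit below which a gene's sexes were not set against each other.
Some items that the naming rules select are not reported here.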

Additional observations from a re-analysis of the deposited data

Results flagged for a closer look

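In 3 genes of MPP1-gate cells the chelator over control ratio had opposite directions in the sexes, each with an interval that left out 0. Aqp1, a water channel of red cells, had a log2 ratio of 1.68 (0.36 to 3.17) with Xist and -1.71 (-2.23 to -1.21) with Y-linked transcripts, a difference of -3.39. Single cells held up to 30 of its 138 control and 20 of its 76 chelator UMIs. Fos had -0.62 with Xist and 1.06 with Y-linked transcripts, a difference of 1.69. Rgs1 had -0.36 and 0.68, a difference of 1.04. None of these differences was tested across mice, since the cells of each sex in each pool come from mice whose number is unknown.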

How the results depend on the processing

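Over all settings, 202 values or counts that answer a comparison stayed within 1 SD, interval or 1.5 times and 31 did not. The gate share differed by 2.94 points with Xist alone. DESeq2 called fewer genes: 297 higher and 519 lower than in the HSC gate, 503 and 531 than in MPP3, and 657 and 540 than in MPP4. With sums per pool and sex, 961 genes were higher than in MPP4. The CD34-tag comparison was the least stable. DESeq2 called 0 genes higher and 0 lower (80 at an unadjusted p under 0.05), and edgeR without the pool as a replicate block 0 and 0 (611). Sums per pool and sex gave 0 and 9 (735), cells away from the thresholds 22 and 11, and sums without the cells richest in erythroid or immunoglobulin UMIs 0 and 5 (865). Erythroid members higher than in the HSC gate numbered 1 with sums per pool and sex and 1 without the richest cells. Against MPP3 they were 7 with DESeq2, 4 per pool and sex and 5 without the richest cells, and against MPP4 3 per pool and sex. DESeq2 called 2 iron members higher than in the HSC gate and 3 megakaryocyte members higher than in MPP3. Without the richest cells, Tfrc against the HSC gate was -0.014. Between pools, 61 genes were higher and 96 lower with Xist alone, and 175 higher with Y-linked transcripts alone. With Xist alone, 3 erythroid and 13 iron members were lower, and log2 ratios turned to 1.68 for Aqp1, 0.24 for Epdr1, -0.63 for Fam83d, -0.62 for Fos, 0.041 for Mpo, -0.31 for Nr4a1 and -0.36 for Rgs1. Myl10 turned to 0.34 with Y-linked transcripts alone, and Mpo to 1.85 with CLRs computed without isotype controls, where 1 added chelator cell held 749 of 955 UMIs. Fits in 1 pool alone leave no residual spread and gave no count. The cause of the other changes was not tested.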
